A study of Equus caballus with 93 samples.

Results

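The comparison described here is that of gel-treated with saline-treated joints of horses at week 8, read in the RNA of the cells suspended in synovial fluid. Its members are the 15 libraries whose label gives week 8, of 93 libraries in the series, and they were chosen by that label alone. The iPAAG arm has 7 libraries, from horses 3, 5, 6, 7, 8, 12 and 17. The Control arm has 8 libraries, from horses 1, 2, 9, 10, 11, 13, 15 and 16. No library of horse 14, which belongs to the iPAAG arm, was analysed at week 8.

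All 16 horses of the study, aged 2 to 5 years, had an osteochondral fragment made by surgery in a middle carpal joint, a model of osteoarthritis, so the Control joints were operated on too. At day 14, which is week 2, the operated joint of the iPAAG horses received 2 mL of 2.5% injectable polyacrylamide hydrogel, and that of the Control horses received 2 mL of phosphate buffered saline. There were 8 horses per arm. The horses were exercised on 5 days a week between weeks 2 and 10. Fluid was drawn at weeks 0, 2, 4, 6, 8 and 10, with week 0 before surgery, and no label gives the order of sampling and injection at week 2. Each library holds the RNA of all cells pelleted from 1 joint's fluid, so fewer cells of a type and less RNA per cell cannot be told apart.

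Synovial fluid is the lubricant of a joint and holds few cells when the joint is healthy, mostly macrophages, lymphocytes and shed lining cells, with neutrophils entering when the joint is inflamed. Polyacrylamide hydrogel is a cross-linked polymer that is mostly water. Injected into a joint, it is known to become integrated into the synovial membrane, where macrophages and lining cells meet it. The gene table lists Ensembl horse identifiers without gene names, and 0 of its 15838 identifiers could be paired with a symbol. The genes are therefore given by identifier and by level, with no statement of what they encode. The labelled cell type, cells of synovial fluid, could not be checked against marker genes for the same reason.

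The values are log2 CPM, the log2 of the reads of a gene relative to a scaled size of its library. At week 8 the scaled size was 0.405 (Control horse 11) to 1.64 (iPAAG horse 3) times the reads. It was above 1 times the reads only in iPAAG horse 3 and Control horse 9 (1.26). The spread of a library is the SD of its log2 CPM over all genes, and a low spread means that strongly and weakly expressed genes lie close together. The library of iPAAG horse 3 had a spread of 1.48 and that of Control horse 9 had 1.79, and these were left out of the main comparison, which kept libraries with a spread of 2 or more. No library of the series had a spread between 1.90 and 2.19, the lowest value kept, which belongs to Control horse 1 at week 8. Both horses left out had kept libraries at earlier weeks. The spread of horse 3 was 3.43 at week 6 and 1.20 at week 10, and that of horse 9 was 3.65 at week 2 and 1.90 at week 10.

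The 6 kept iPAAG libraries had a mean spread of 3.58 ± 0.319 (SD) and the 7 kept Control libraries had 3.17 ± 0.555. The kept iPAAG libraries ranged from 3.12 to 3.87, and the kept Control libraries from 2.19 to 3.55, so the arms overlapped. The difference was 0.41 with a two-sided exact permutation p of 0.149, or 0.446 after Benjamini-Hochberg adjustment over 6 library measures. Reads in genes averaged 25669967 ± 6051199 (SD) in kept iPAAG libraries and 18802419 ± 7459578 in kept Control libraries, with an adjusted exact p of 0.446. Over all 15 libraries the reads ranged from 6076026 to 34175789. None of the 6 measures (spread, reads, genes without a read, genes detected at a common depth, and the shares of reads in the leading gene and the leading 10 genes) differed between arms at an adjusted p below 0.05, in the kept libraries, in all 15 or without Control horse 11.

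**Figure D1:**
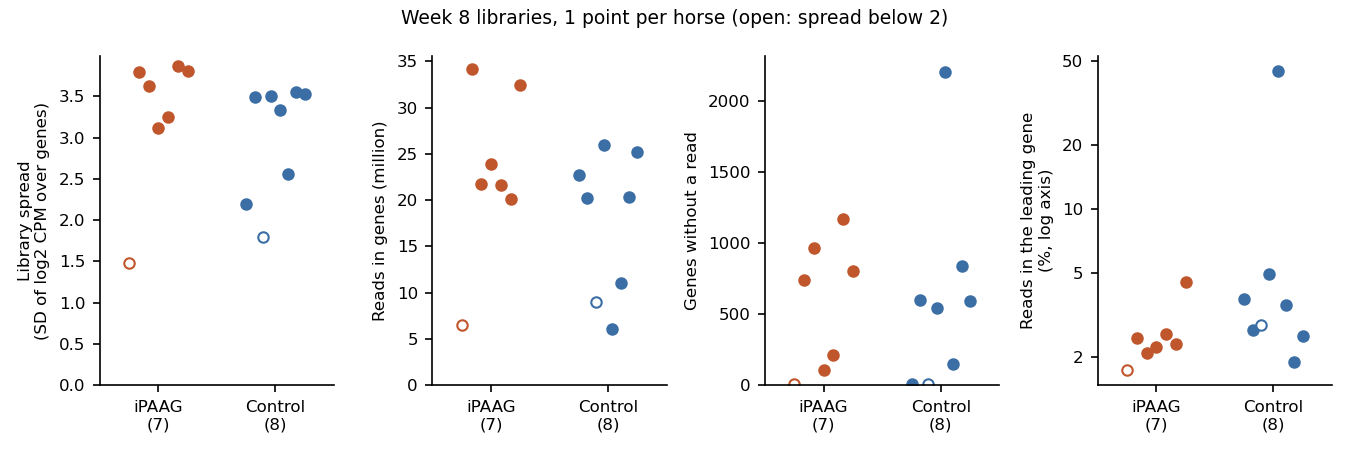
Spread, reads in genes, genes without a read and share of reads in the leading gene (log axis) for each week 8 library, with 7 iPAAG libraries left and 8 Control libraries right in each panel. Open points have a spread below 2, and the Control point at 44.8% and 2211 genes without a read is horse 11.

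The Control library of horse 11 stood apart from the other 14. ENSECAG00000032733 took 44.8% of its reads, against 1.74% to 4.50% in iPAAG libraries and 1.79% to 4.92% in the other Control libraries. In the same horse this gene took 3.63%, 1.74%, 1.80% and 2.76% over weeks 0, 2, 6 and 10. A second gene, ENSECAG00000055539, took 7.73% in horse 11 at week 8, against 0.594% to 1.72% in the other week 8 libraries. This library also had the fewest reads of the 15, 6076026, and 2211 genes without a read. Its deposited scale had been set accordingly, with a scaled library size 0.405 times its reads, so that its median log2 CPM of 3.72 was close to the 3.79 of iPAAG horse 12. Neither gene differed between arms by limma. The difference, iPAAG minus Control, was -0.91 ± 0.81 (SE, adjusted p = 0.516) on the log2 scale for ENSECAG00000032733 and -0.81 ± 0.64 (adjusted p = 0.460) for ENSECAG00000055539. Without Control horse 11 it was -0.21 ± 0.48 (adjusted p = 0.808) for ENSECAG00000032733 and -0.25 ± 0.38 (adjusted p = 0.713) for ENSECAG00000055539.

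No single gene passed the test between gel and saline at week 8, but the number of genes with a small unadjusted p was large, and the lower genes outnumbered the higher ones. With 6 iPAAG and 7 Control libraries, limma called 0 of 15838 genes (0%) at a Benjamini-Hochberg adjusted p below 0.05, and the smallest adjusted p was 0.0620, shared by 137 genes. At an unadjusted p below 0.05 there were 3683 genes (23.3%), of which 1377 (8.69%) were higher and 2306 (14.6%) lower in iPAAG. At an adjusted p below 0.1 there were 1381 of the 15838 genes, 530 higher and 851 lower. With all 15 libraries limma called 0 genes and 2211 (14.0%) had an unadjusted p below 0.05. Without Control horse 11 it called 1 gene (0.00631%), ENSECAG00000018147, which was lower in iPAAG, and 3646 (23.0%) had an unadjusted p below 0.05.

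The count of called genes turned on single horses. Of 15838 genes, it was 1088 without Control horse 10, 994 without Control horse 2 and 533 without iPAAG horse 7. It was 0 in 9 of the 13 fits that each left out 1 library. The fits without Control horse 10 and without Control horse 2 shared 687 called genes, and 424 were called in all 3. With libraries of all weeks in 1 limma model and horse as a random block, 4126 genes (26.1%) had an unadjusted p below 0.05 and 822 (5.19%) were called at week 8, 297 higher (1.88%) and 525 lower (3.31%). Of these 822, 821 had an unadjusted p below 0.05 with the same sign in the week 8 libraries alone. Both fits estimate the week 8 difference almost wholly from those libraries, so this is no separate support. The model over all weeks without the block called 695 of 15838.

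The split between higher and lower genes depended on scaling. The median difference over all genes was -0.13 on the log2 scale with the deposited scaling, -0.05 with each library centred on its median, and 0.03 after quantile normalisation, a shift of 0.16. Of the genes with an unadjusted p below 0.05, 37.4% were higher in iPAAG with the deposited scaling (1377 higher, 2306 lower). The share was 47.9% with median centring (1775 higher, 1931 lower) and 54.5% after quantile normalisation (1863 higher, 1554 lower). The excess of lower genes therefore did not hold under quantile normalisation, whereas the number of genes with a small p did.

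Higher and lower genes differed in level. The 1377 higher genes had a median level of 6.10 log2 CPM and a median difference of 0.59, and the difference reached 1 in size in 15.1% of them. The 2306 lower genes had a median level of 3.15 log2 CPM and a median difference of -1.21, and 59.2% reached 1. Over all genes the median level was 3.91 log2 CPM, and 20.7% reached 1. At least 1 of the 13 libraries had no read for 0.508% of the higher genes, 19.1% of the lower genes and 19.1% of all genes.

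Genes with a mean below 0 log2 CPM, 3021 in all, had a median difference of -1.24, with 4 higher and 520 lower at an unadjusted p below 0.05. Their median level was -2.26 log2 CPM in iPAAG and -0.99 in Control. The 2088 genes between 0 and 2 had a median difference of -0.49, with 19 higher and 397 lower. The 2969 genes between 2 and 4 had -0.11, with 140 higher and 457 lower. Among 4111 genes between 4 and 6 the counts were close, 501 higher and 507 lower, with a median of 0.02. Among the 3649 genes at 6 and above the order turned, with 713 higher and 425 lower and a median of 0.05. The medians of these 2 upper classes were -0.01 and -0.06 with all 15 libraries, so their sign was not stable.

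The low median of weakly expressed genes depended on which libraries were kept and on scaling. A library of low spread by definition holds weakly expressed genes closer to strong ones. Leaving such Control libraries out therefore tends to bring this median nearer to 0, whatever the treatment. In the libraries with a spread of 3 or more, which leaves out Control horses 1 and 13 and keeps all 6 iPAAG libraries, the median difference of genes below 0 log2 CPM was -0.27. After quantile normalisation it was -0.33, and the medians of the next 2 classes turned positive, 0.22 between 0 and 2 and 0.15 between 2 and 4. For genes below 0 log2 CPM the median stayed negative without Control horse 11, at -1.31, and with all 15 libraries, at -0.89. With a spread of 3 or more, 3066 genes still had an unadjusted p below 0.05, 1338 higher and 1728 lower, and limma called 0. Added as a covariate to the 13 libraries, spread left 2674 such genes, 1231 higher and 1443 lower, and 0 called.

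**Figure D2:**
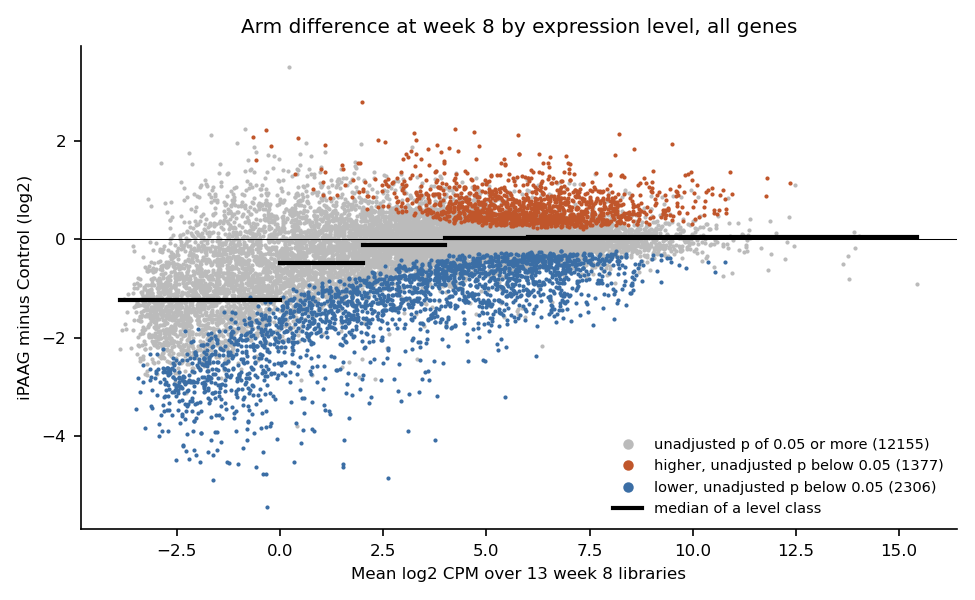
Each point is 1 of 15838 genes, with its mean log2 CPM over the 13 kept week 8 libraries on the horizontal axis and its difference, iPAAG minus Control (log2), on the vertical axis. Coloured points have an unadjusted limma p below 0.05, and the black bars, 1 per level class, lie at -1.24 for genes below 0 log2 CPM and at 0.05 for genes at 6 and above (-0.06 with all 15 libraries).

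The arms did not overlap, with every kept iPAAG library beyond every kept Control library, in 77 higher genes (0.486%) and 63 lower genes (0.398%). The higher ones had a median difference of 0.72, and each had a read in all 13 libraries. The lower ones had a median difference of -1.79, and 15 of the 63 lacked reads in at least 1 library. With all 15 libraries, 13 higher and 9 lower genes of the 15838 did not overlap.

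As no gene passed the test, the genes given by identifier are the 2 higher and the 2 lower ones with the smallest unadjusted p among genes with a mean of at least 1 log2 CPM. Being chosen on this comparison, they illustrate it and do not support it. Under the deposited scaling each of the 4 had the same adjusted p of 0.0620.

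ENSECAG00000008678 was a strongly expressed gene that was higher in iPAAG. It had 8.54 to 9.23 log2 CPM in the 6 kept iPAAG libraries, with a median of 8.81, against 7.64 to 8.30 in the 7 kept Control libraries, with a median of 7.96. All kept iPAAG libraries lay above all kept Control libraries. The means were 8.83 ± 0.262 in iPAAG and 7.92 ± 0.241 in Control (SD), a difference of 0.91 ± 0.15 (SE), or 1.87-fold, with a limma p of 1.61e-05 before adjustment. The libraries left out had 8.07 in iPAAG horse 3 and 7.08 in Control horse 9, so iPAAG horse 3 lay within the Control range.

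ENSECAG00000014846 behaved alike across libraries, with a Pearson r of 0.966 to ENSECAG00000008678 over the 13 libraries, which share the arm difference both were chosen for. It had 7.09 to 8.12 log2 CPM in kept iPAAG libraries, with a median of 7.19, against 5.92 to 6.76 in kept Control libraries, with a median of 6.27. The highest iPAAG library, horse 17, was also the highest for ENSECAG00000008678. The means were 7.39 ± 0.397 in iPAAG and 6.33 ± 0.283 in Control, a difference of 1.05 ± 0.18 (SE), or 2.08-fold. The library of iPAAG horse 3 had 6.81, just above the Control libraries, and that of Control horse 9 had 5.50, below all others.

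ENSECAG00000018147 was weakly expressed and lower in iPAAG. The 6 kept iPAAG libraries had between 20 and 25 reads of it each, -0.13 to 0.45 log2 CPM with a median of 0.19. The 7 kept Control libraries had between 4 and 289 reads, 0.87 to 3.80 log2 CPM with a median of 2.78. The iPAAG libraries lay close together, with an SD of 0.202 against 1.07 in Control. The lowest Control library was horse 11, where the value rests on 4 reads. The means were 0.18 in iPAAG and 2.67 in Control, a difference of -2.49 ± 0.45 (SE). Without horse 11 it was -2.79 ± 0.37, with an adjusted p of 0.0377 by limma. The library of iPAAG horse 3, left out for its spread, had 391 reads and 5.20 log2 CPM, above every Control library. With all 15 libraries the difference was -1.95 ± 0.72 and the adjusted p 0.211.

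ENSECAG00000015766 had the larger difference of the 2 lower genes. Kept iPAAG libraries had 6 to 56 reads, -1.34 to 1.07 log2 CPM with a median of -0.58. Kept Control libraries had 59 to 392 reads, 1.61 to 5.34 log2 CPM with a median of 3.41. Both arms were wide, with SDs of 1.06 in iPAAG and 1.48 in Control, and the gap between the highest iPAAG library, horse 5, and the lowest Control library, horse 1, was small beside them. The difference was -3.64 ± 0.66 (SE). The library of iPAAG horse 3 had 3.18 log2 CPM, within the Control range, and that of Control horse 9 had 5.95, above the rest.

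**Figure D3:**
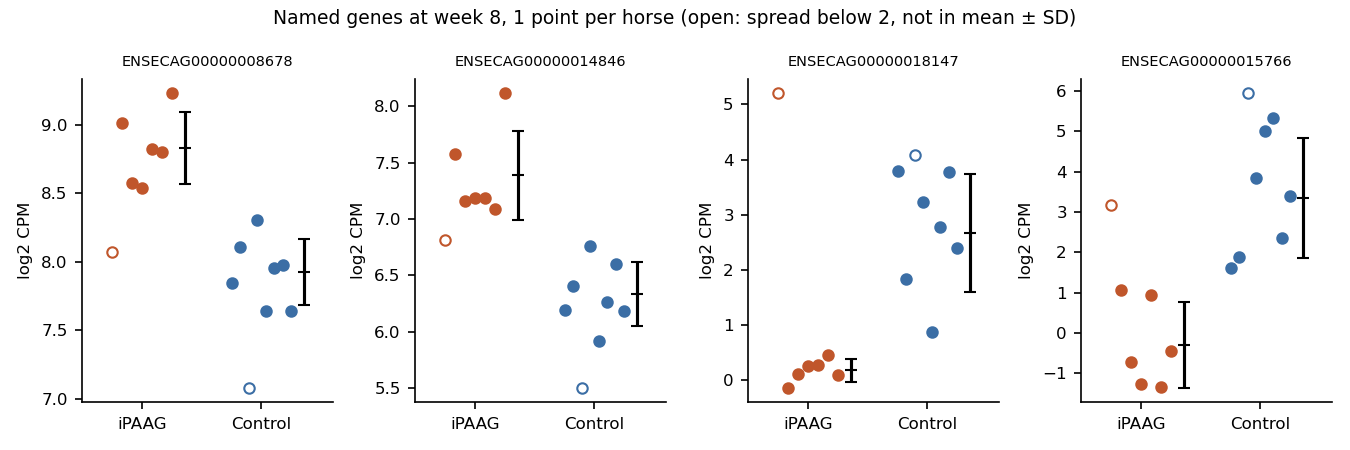
Log2 CPM of the 4 named genes in each week 8 library, iPAAG left and Control right in each panel, with 1 point per horse. Bars are the mean ± SD of the kept libraries, which do not overlap between arms in any panel, and open points are iPAAG horse 3 and Control horse 9, left out for a spread below 2.

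Relative to the median of all genes, the differences of the 4 genes were 1.04, 1.19, -2.36 and -3.51 in the order given above with the deposited scaling, and 0.83, 0.99, -2.07 and -2.94 after quantile normalisation. All 4 kept their sign in each of the 26 alternatives. These refit mostly the libraries on which the genes were chosen, so the kept sign is no separate support. The adjusted p was below 0.05 in 6 of the 26 for each of the first 3 genes and in 4 of the 26 for ENSECAG00000015766. Over the 13 libraries, 76 genes had a Pearson r above 0.9 with ENSECAG00000008678 and 22 with ENSECAG00000014846, counts that fell to 9 and 4 once each arm's mean was removed. For ENSECAG00000018147 there were 3 such genes, and 2 with the arm means removed, and for ENSECAG00000015766 there were 0.

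Among kept libraries, those of iPAAG resembled one another more than those of Control did. The Pearson r across genes between kept libraries was 0.924 to 0.953 within iPAAG, with a median of 0.938, and 0.817 to 0.956 within Control, with a median of 0.906. Between the arms it was 0.827 to 0.955, with a median of 0.910, so libraries of different arms were as alike as many Control pairs. In libraries with a spread of 3 or more, the r within Control was 0.906 to 0.956. Its median there was 0.926, closer to that of iPAAG, and the median between arms was 0.920. The median over genes of the SD among libraries was 0.446 in iPAAG and 0.580 in Control, and 29.6% of genes had the larger SD in iPAAG. Without Control horse 11 the Control median was 0.549 and the share 33.5%, and in libraries with a spread of 3 or more they were 0.535 and 42.8%. With all 15 libraries the order turned, with a median SD of 0.673 in iPAAG and 0.613 in Control. No test was made of these values, since genes are not replicates.

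The same arms were compared at the other weeks to set week 8 beside them. At week 0, before surgery and injection, 380 genes (2.40%) had an unadjusted p below 0.05 with 7 iPAAG and 8 Control libraries, 312 higher (1.97%) and 68 lower (0.429%), and limma called 0. At week 2 there were 4115 (26.0%) with 7 libraries per arm, 2120 higher (13.4%) and 1995 lower (12.6%), and limma called 1 (0.00631%). At week 4, with 3 iPAAG and 7 Control libraries, there were 1576 (9.95%), 300 higher (1.89%) and 1276 lower (8.06%). At week 6, with 4 and 6 libraries, there were 883 (5.58%), and at week 10, with 2 and 6 libraries, 898 (5.67%), with 0 called at each of these 3 weeks. In kept libraries the shares were largest at week 2, the week of injection, and at week 8. The order of the weeks changed with all libraries, when 8566 genes (54.1%) had an unadjusted p below 0.05 in week 4, 5530 (34.9%) in week 10, 2211 (14.0%) in week 8, 1208 (7.63%) in week 2, 669 (4.22%) in week 0 and 460 (2.90%) in week 6. No difference between the weeks' counts was tested. Mean library spread was 3.17 ± 0.621 in iPAAG and 3.51 ± 0.141 in Control at week 2, the opposite order to week 8.

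The gene called at week 2, ENSECAG00000011412, was outside the rule for named genes and is given because it was the only one. Its difference was 0.75 ± 0.09 (SE) at week 2 with an adjusted limma p of 0.0103, and with all 16 libraries of week 2 limma called 0 genes. At week 8 it had 6.42 to 6.83 log2 CPM in kept iPAAG libraries against 5.38 to 6.71 in kept Control libraries. The arms overlapped, and the week 8 difference of 0.51 ± 0.17 had an adjusted limma p of 0.104.

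In kept libraries, genes set apart at week 2 mostly lay on the same side at week 8. These weeks share horses but no library. Of the 2120 genes higher in iPAAG at week 2 by unadjusted p, 72.5% were higher at week 8, against 39.8% of all genes, and their median week 8 difference was 0.29. Of the 1995 genes lower at week 2, 93.2% were lower at week 8, against 60.2% of all genes, and their median was -0.43. Week 4 gave 65.2% of the higher genes higher and 91.1% of the lower genes lower, against 37.4% and 62.6% of all genes, and week 10 gave 80.4% and 73.0%, against 55.3% and 44.7%. At week 6 the same sets lay on the other side, with 33.7% of the higher genes higher and 20.5% of the lower genes lower, against 47.8% and 52.2% of all genes. At week 0, before injection, 84.0% of the higher set was higher and 80.3% of the lower set was lower, against 58.9% and 41.1% of all genes, with medians of 0.21 and -0.12. The arms thus lay apart in the same direction in most of these genes before surgery, and genes are not independent of one another.

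**Figure D4:**
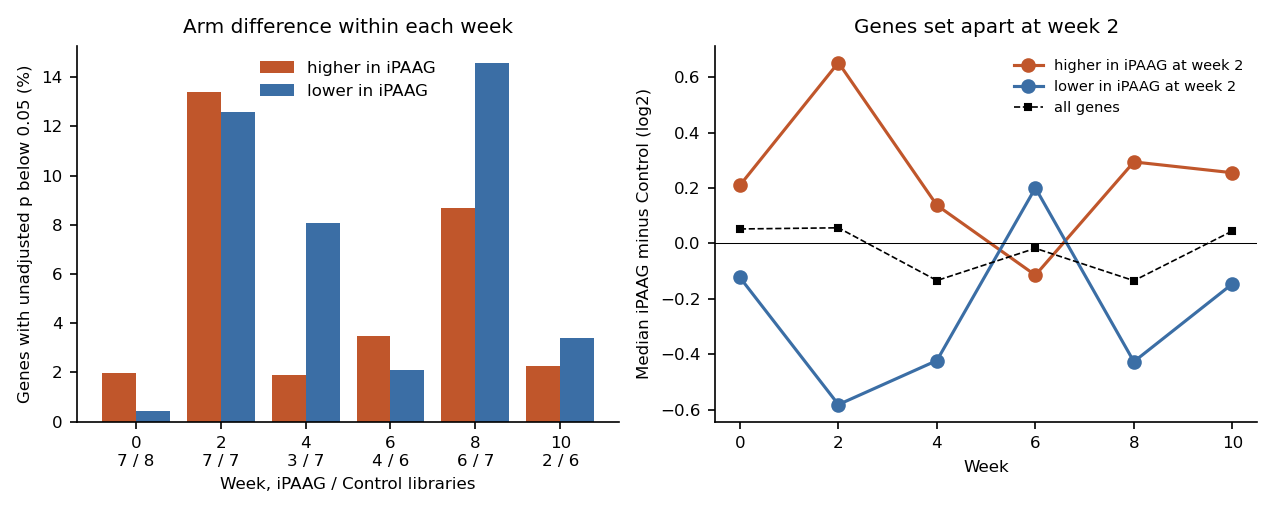
Left, the percent of 15838 genes with an unadjusted limma p below 0.05 between arms within each week, higher and lower in iPAAG, with the number of kept iPAAG and Control libraries under each week. Right, the median difference, iPAAG minus Control (log2), of the 2120 genes higher and the 1995 lower at week 2, which was 0.29 and -0.43 at week 8, with all genes dashed.

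The named genes were followed over the other weeks in libraries with a spread of 2 or more, of which iPAAG had 3 at week 4 and 2 at week 10. ENSECAG00000008678 had differences of 0.17, 0.74, 0.67, 0.31 and 1.01 over weeks 0, 2, 4, 6 and 10, beside 0.91 for week 8. ENSECAG00000014846 had 0.43, 0.79, 0.49, 0.33 and 0.66 at the same weeks. In these libraries both were higher in iPAAG at every week. With all libraries the order turned for ENSECAG00000008678, with means of 6.47, 7.11 and 7.39 log2 CPM in iPAAG against 7.61, 7.77 and 8.07 in Control over weeks 4, 6 and 10. For ENSECAG00000014846 it turned at weeks 4 and 10, with 6.05 and 6.46 in iPAAG against 6.10 and 6.52 in Control. ENSECAG00000018147 was lower in iPAAG at every week in kept libraries, with -1.27 ± 0.42 (SE) at week 0, then -0.52, -1.51 and -1.44 at weeks 2, 4 and 6, and -1.31 at week 10. With all libraries it was higher in iPAAG over weeks 4, 6 and 10, with means of 3.28, 2.94 and 3.96 log2 CPM against 2.04, 2.80 and 3.12 in Control. ENSECAG00000015766 had 0.38, -0.81, -3.31, -0.16 and -0.73 over the same weeks, and the SE of the value at week 4 was 1.67. With all libraries its means over weeks 4, 6 and 10 were 1.15, 1.81 and 2.14 log2 CPM in iPAAG against 0.76, 0.81 and 0.03 in Control. None of these differences at the other weeks had an adjusted limma p below 0.05.

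**Figure D5:**
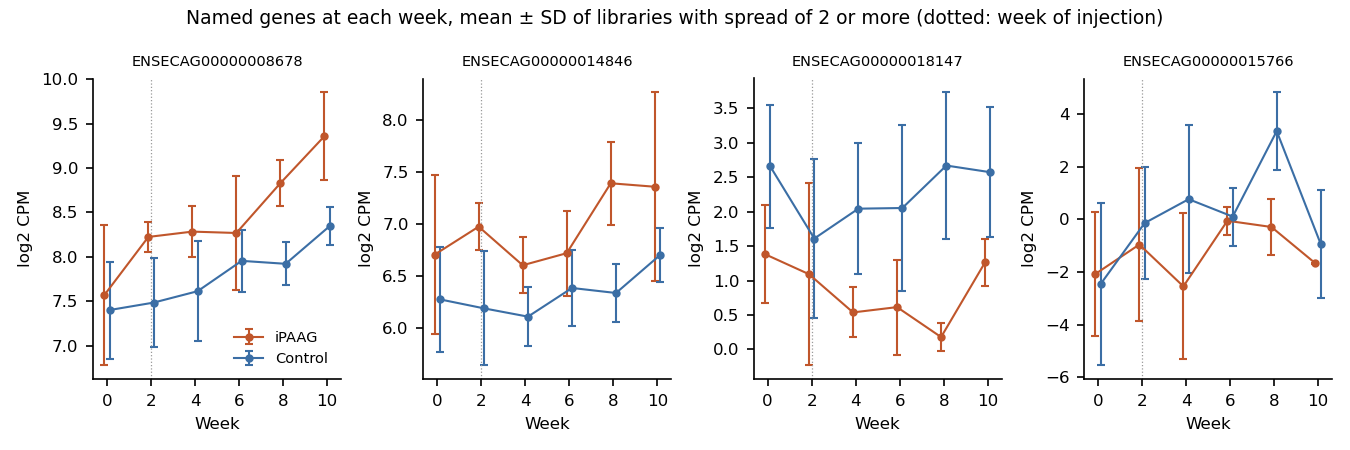
Mean log2 CPM ± SD of the 4 named genes in iPAAG and Control at weeks 0 to 10, over libraries with a spread of 2 or more, with the week of injection dotted. In these libraries ENSECAG00000008678 was higher in iPAAG at each week, by 0.17 at week 0 and 0.91 at week 8, and ENSECAG00000018147 was lower at each week, but with all libraries both orders turned at weeks 4, 6 and 10.

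The arms were also compared by each horse's own change to week 8. A change removes what a horse carries from one week to the other, but adds the scatter of the earlier week. Deviations of the same horse correlated by only -0.02 on average between weeks 2 and 8, and by 0.196 between weeks 0 and 8. Little of a horse's own deviation was thus carried over from week 2. A change also subtracts the arm difference of the earlier week, and genes set apart at week 2 mostly lay on the same side at week 8. From week 2 to week 8, with 6 iPAAG and 6 Control horses, limma called 0 genes (0%), the smallest adjusted p was 0.160, and 1423 genes (8.98%) had an unadjusted p below 0.05, 708 with the higher change in iPAAG (4.47%) and 715 with the lower (4.51%). The even split was not stable, with 612 higher and 1479 lower without iPAAG horse 7, and 617 and 426 without iPAAG horse 6. It was 246 and 912 in a fit without the replicate block, which also takes in horses kept at only 1 of the weeks. From week 0 to week 8, with 6 iPAAG and 7 Control horses, limma called 0 genes (0%), the smallest adjusted p was 0.213, and 2447 (15.5%) had an unadjusted p below 0.05, 559 higher (3.53%) and 1888 lower (11.9%). The higher count was 313 to 741 with 1 horse left out, lowest without iPAAG horse 12, and lower genes outnumbered higher ones in each of these fits. Of 15838 genes, the count called from week 2 was 16 without Control horse 2 and 1 without Control horse 13. From week 0 it was 88 without iPAAG horse 7.

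The level of ENSECAG00000008678 went up between week 2 and week 8 in 6 of 6 iPAAG horses, by 0.56 ± 0.261 (SD), and in 6 of 6 Control horses, by 0.51 ± 0.346. The arm difference in this change was 0.05 ± 0.18 (SE), with an adjusted limma p of 0.942. From week 0 it went up by 1.34 ± 0.713 in 6 of 6 iPAAG horses and by 0.44 ± 0.618 in Control horses, up in 6 of 7, and the arm difference of 0.90 ± 0.33 had an adjusted p of 0.253. ENSECAG00000018147 changed from week 0 by -1.12 ± 0.766 in iPAAG horses, down in 6 of 6, and by 0.03 ± 1.03 in Control horses, down in 5 of 7. That arm difference, -1.14 ± 0.56 (SE), had an adjusted limma p of 0.333. ENSECAG00000015766 changed from week 0 by 1.45 ± 2.41 in iPAAG horses and by 6.13 ± 3.67 in Control horses, up in 4 of 6 and 7 of 7, with an adjusted p of 0.234.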

How the data were processed

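The authors deposited 1 table of log2 values, voom log2 CPM for 15838 genes in 93 libraries. The submitters' processing notes name STAR 2.7.10b, the genome build EquCab3.0 and limma 3.62.2. Per the labels' protocols, fluid was digested with hyaluronidase, cells were pelleted, and a stranded total RNA kit for low input was used. How reads were counted (tool, annotation release, strand) and which low genes were dropped is not given in the sources used here, so reads of overlapping or near-identical genes may be split. On the deposited scale, which adds 0.5 reads, 100.0% of values were whole reads within 0.05, and these recovered reads gave the depths. Added reads can understate the log2 difference of genes with few reads, and can also shift it where library depths differ. With 5 reads added at week 8, 1312 genes were higher and 3087 lower at an unadjusted limma p below 0.05. The median difference was then -0.20. With the deposited values these were 1377, 2306 and -0.13. The total per library limits precision, and reads are PCR copies, not counted molecules.

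Libraries were grouped by arm, horse and week from their labels. The arms at week 8 share no horse, and each library is a separate horse. Columns of no sample numbered 0. Libraries with a spread below 2 were left out of the main fits. Arms were compared in limma 3.58.1 (R 4.3.3) on the deposited log2 values, with moderated variances and a mean trend, and Benjamini-Hochberg adjustment over all genes at 0.05. Changes between weeks were fitted on per-horse differences. Pairing by horse comes from the labels: deviations of the same horse correlated by 0.196 on average between weeks 0 and 8 (13 pairs) and by -0.02 between weeks 2 and 8 (12 pairs). Library measures were compared by two-sided exact permutation tests in Python 3.11.15 with scipy 1.17.1. Genes at a common depth are those expected in a draw of 6076026 reads. The fits were also run on simulated reads, drawn independently for each gene with the same dispersion for all and no horse effect. That run cannot show how the fits behave on the real libraries, and no result rests on it.

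Named genes were to be the 2 largest rises and falls past the threshold with a mean of at least 1 log2 CPM, filled by smallest unadjusted p where fewer passed. The libraries, rules and 21 gene lists were chosen with earlier results of these data known. The lists need symbols, so 0 list tests were run. Alternatives tried were other library sets, scalings, low-value filters, added reads, weights, covariates and a replicate block.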

Additional observations from a re-analysis of the deposited data

Results flagged for a closer look

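In 24 sets of values, each 1 arm at week 8, 10 held a library far from the nearest of the others by Dixon's criterion. Chance meets this criterion in about 1 set in 20, and the sets are not independent of one another. Sets of library measures held all libraries of the arm, whereas sets of gene levels held only the kept ones. In the iPAAG arm, horse 3 had the lowest spread, 1.48, and the lowest share of reads in the leading 10 genes, 6.48%. Horse 17 had the highest share in the leading gene of its library, 4.50%, and the highest levels of ENSECAG00000032733, 15.89 log2 CPM, and ENSECAG00000055539, 14.48 log2 CPM. In the Control arm all 5 flags fell on horse 11. That library had 2211 genes without a read, 44.8% of reads in the leading gene and 57.1% in the leading 10, with 20.08 log2 CPM of ENSECAG00000032733 and 17.54 log2 CPM of ENSECAG00000055539. Both genes were included because they took the most reads in that library, so their flags there followed from the choice. The shares in the leading genes restate the same reads. The count of 10 in 24 therefore cannot be set against the rate expected by chance.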

How the results depend on the processing

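The count of genes called at week 8 was 0 with all 15 libraries, a spread of 3 or more, median centring, quantile normalisation, a mean of at least 1 log2 CPM, 5 added reads, array weights and voom weights, and ranged from 0 to 1088 when 1 library was left out. Of 15838 genes, it was 232 with all 15 libraries and spread as a covariate. It was 822 with the replicate block over all weeks, and 695 in that model without the block. The number at an unadjusted p below 0.05, 3683, was 2211 with all 15 libraries, 2020 with all but Control horse 11, and 2799 to 4241 when 1 library was left out. The cause of these differences was not tested. With 1 horse left out, genes called in the change to week 8 ranged from 0 to 16 from week 2 and from 0 to 88 from week 0. Both counts were 0 in fits without the replicate block, which also take in horses kept at only 1 of the weeks. With no library left out for its spread, the arm comparison called 0 genes in week 2 and 5904 of 15838 in week 4. In week 4, 4 of 7 iPAAG libraries had a spread below 2. The difference in genes without a read, -45.9, was 181 without Control horse 11. The fit with spread as a covariate on 13 libraries, the model over all weeks without the block, and all libraries without horse 11 were chosen after seeing the data. A pair of planned count-model tests was not run, although whole reads could be recovered from the deposited log2 values. Differences of weakly expressed genes can rest on few reads. ENSECAG00000018147 had 4 reads in Control horse 11, against 57 to 289 in the other kept Control libraries of week 8.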
